A study of Sus scrofa with 6 samples.

Results

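The genes COL5A1, SPARC, TNC, FBN1, DCN, IGFBP6 and P4HA1, which belong to the artery wall matrix and to fibroblasts, were followed in femoral arteries of pigs, sampled ex vivo where they had been punctured, after closure with TAG, a vascular glue, or with Exoseal, a marketed vascular closure device. Members were all non-control probes on the array whose target is a pig RefSeq transcript of 1 of these 7 genes, which gave 28 of 43603 probes, or 7 of the 2389 genes that could be named. RNA of 3 TAG arteries and 3 Exoseal arteries was hybridised to 6 Agilent 1-colour porcine arrays. All 6 arteries were punctured on the left, per the labels, which name no breed, age, sex, time after closure or animal. The p-values therefore cover only the variation among these 6 samples, part of which may be technical. Exoseal replicate 1 bears Exoseal in its title and TAG in its treatment characteristic, and it was grouped by its title.

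As background, the wall of a muscular artery is held by fibrillar collagens, by elastic fibres built on fibrillin microfibrils, and by proteoglycans that bind both. COL5A1 encodes a chain of type V collagen, which starts and limits the growth of collagen fibrils. P4HA1 encodes a catalytic subunit of the prolyl hydroxylase that stabilises the collagen triple helix. SPARC (osteonectin) and TNC (tenascin C) are matricellular proteins that alter the contact of cells with matrix during wound repair, FBN1 is the main microfibril protein, DCN (decorin) is a small proteoglycan on collagen fibrils, and IGFBP6 binds insulin-like growth factor II and is made by adventitial fibroblasts.

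The arrays differed as a whole before any gene is considered. By the scanner's flag, TAG arrays had 37.4% ± 3.38 of their probes well above background and Exoseal arrays 64.3% ± 5.70 (SD, n = 3 each; exact two-sided permutation test over samples, p = 0.1, which is the lowest p that 3 against 3 can give). The upper quartile of brightness (75th percentile of background-subtracted, processed signal), to which each array was scaled, was 19.3 to 36.4 for TAG and 61.0 to 151 for Exoseal. In the file headers the 3 TAG arrays and Exoseal replicate 1 had the same scan time, and Exoseal replicates 2 and 3 another. No barcode entry of the headers was repeated within a scan time. Arrays of the same scan time are called a slide here, slide 1 and slide 2 in that order. This is inferred from the scan time alone, and whether these arrays shared a physical slide was not established. A level is the log2 processed signal less its array's 75th percentile, and a difference is TAG minus Exoseal on that scale. Probes differ in how well they bind, so a level is set only against the same probe on another array.

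Of the 28 probes, 27 were analysed, because A_72_P615272 of SPARC carried an outlier flag on TAG replicate 3, and 26 were well above background on at least 3 of 6 arrays and were tested (22 of them on all 6). With limma and Benjamini-Hochberg adjustment over 22720 probes at 0.05, 13 of the 26 were higher in TAG and 0 were lower, where 7.06% of all tested probes were called higher and 3.69% lower (10.8% in either direction). Among tested probes of named genes alone 8.77% were called higher and 2.9% lower. The median log2 difference of the 26 probes was 1.85, against 0.08 over all tested probes and 0.31 over those of named genes. The genes were proposed with earlier results of these arrays known, so this count is a description of the 7 genes. In bulk tissue a change in the number of cells of a type and a change in RNA per cell cannot be told apart. When TAG replicate 1, 2 or 3 or Exoseal replicate 2 or 3 was left out, 0 of the 26 passed in limma. In these fits 15 to 19 had an unadjusted p under 0.05 and at least a 2-fold difference. With all arrays that unadjusted criterion held for 20 of the 26 and for 6940 of the 22720 tested probes. Leaving out Exoseal replicate 1 gave 19 higher and 2 lower, in a fit where calls over all probes also rose. The median log2 difference there was 1.93 for the 26 probes and 0.18 over all tested probes. With slide as a block 3 passed, all higher. Within slide 1 Exoseal is replicate 1 alone, so only differences are given. There the median was 1.55 for the 26 probes and -0.09 over all tested probes. On slide 1 the difference was above 0 for 23 of the 26 probes, against 47.2% of all tested probes. All TAG arrays shared slide 1, so with slide as a block the differences are those within slide 1. Both rest on Exoseal replicate 1 alone, whose labels conflict.

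**Figure D1:**
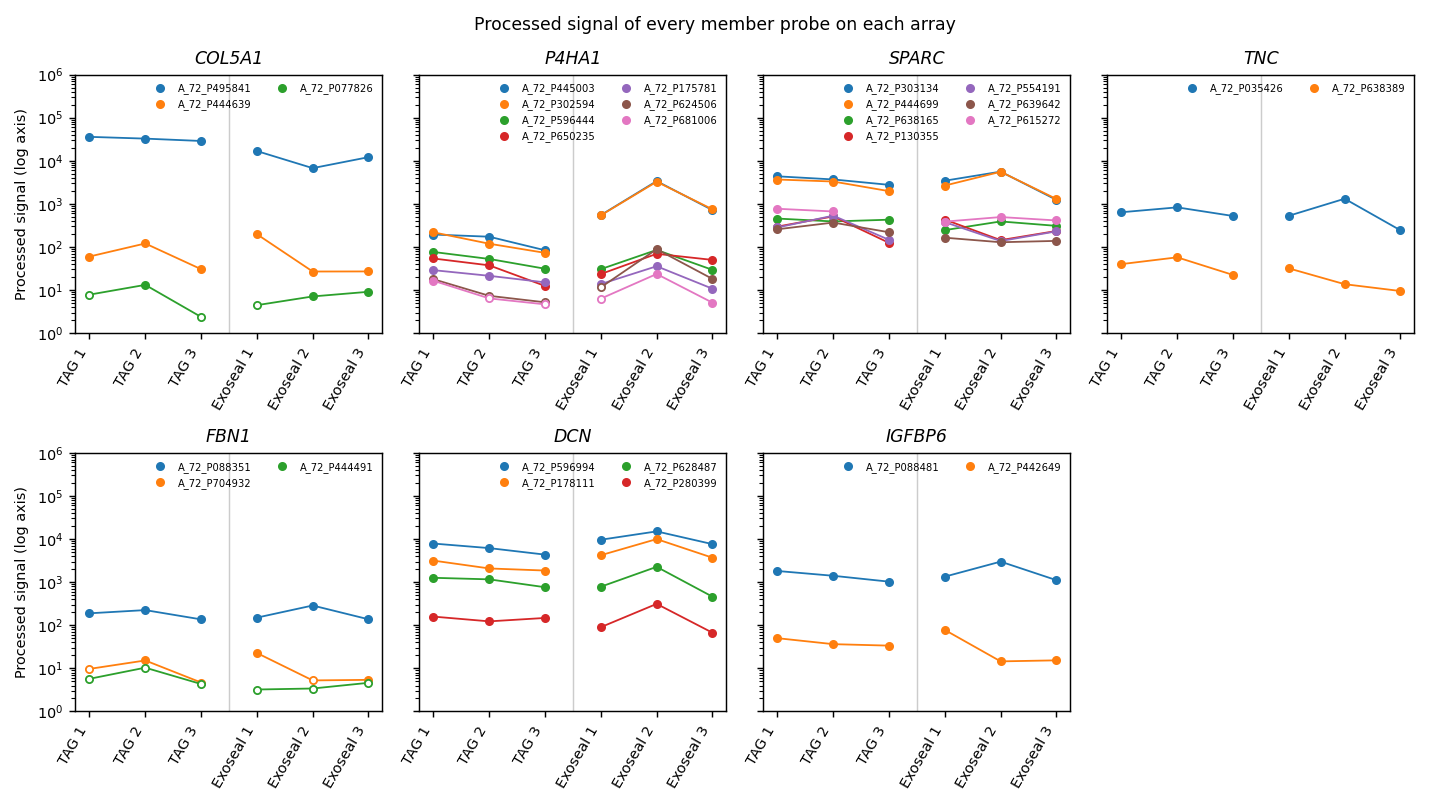
Processed signal (log axis, arbitrary brightness units, not scaled between arrays) of all 28 member probes on the 3 TAG and the 3 Exoseal arrays, 1 panel per gene. Filled points are well above background, open points are not, and lines only join the values of the same probe. COL5A1 probe A_72_P495841 lies at 28741 to 35834 on TAG arrays and at 6735 to 16785 on Exoseal arrays, and most other probes overlap between the groups before scaling.

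The fibrillar collagen gene COL5A1 gave the largest difference of the 26 tested probes. Its probe A_72_P495841 had processed signals of 35834, 32604 and 28741 in TAG replicates 1 to 3, against 16785, 6735 and 12101 in Exoseal replicates 1 to 3. It stood at positions 11, 7 and 7 from the brightest of 43380 probes on the TAG arrays, and at positions 46, 682 and 112 on the Exoseal arrays. Every TAG value exceeded every Exoseal value even without scaling, which held for 1.37% of all tested probes. The mean level was 10.26 ± 0.30 in TAG and 7.02 ± 1.34 in Exoseal (SD, n = 3 each), a log2 difference of 3.25 ± 0.65 (SE) or 9.49-fold (limma, adjusted p = 0.0257), and 2.33 within slide 1. With quantile scaling it was 1.86 and did not pass (limma, adjusted p = 0.0889).

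The other COL5A1 probes were not called. A_72_P444639 had 59.9, 120 and 30.5 in TAG against 198, 26.9 and 27.0 in Exoseal. Its highest value was on Exoseal replicate 1, its groups overlapped, and its log2 difference of 1.91 ± 0.93 (limma, adjusted p = 0.197) turned to -0.33 within slide 1. A_72_P077826 had 7.82, 13.2 and 2.38 in TAG against 4.45, 7.11 and 9.11 in Exoseal, with 1 TAG and 2 Exoseal arrays well above background, and a log2 difference of 1.63 ± 0.64 (limma, adjusted p = 0.123). Averaged over its 3 probes, COL5A1 had a log2 difference of 2.26 (limma, adjusted p = 0.0549).

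P4HA1, the collagen prolyl hydroxylase subunit, was the 1 gene of the 7 whose probes went both ways. The brightest pair lay lower in TAG without overlap but did not pass. A_72_P445003 had 194, 173 and 83.7 in TAG against 548, 3368 and 716 in Exoseal, and A_72_P302594 had 219, 119 and 72.9 in TAG against 542, 3259 and 746 in Exoseal. Before scaling, Exoseal replicate 2, the brightest array as a whole, stood far above the other arrays on both probes. After scaling its levels were 4.48 and 4.43, against 2.99 to 3.61 on the other Exoseal arrays. Their log2 differences were -1.25 ± 0.50 and -1.44 ± 0.49 (limma, adjusted p = 0.124 and 0.0868), and -0.58 and -0.75 within slide 1. Without Exoseal replicate 1 these 2 probes were the ones called lower.

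A second pair of P4HA1 probes was called higher in TAG. A_72_P596444 had 76.4, 52.6 and 31.2 in TAG against 30.6, 85.2 and 29.4 in Exoseal, and A_72_P175781 had 28.9, 21.4 and 15.1 in TAG against 13.8, 35.7 and 10.7 in Exoseal. These signals overlapped before scaling, and the scaled levels did not overlap: 0.93 ± 0.21 in TAG and -1.01 ± 0.17 in Exoseal for the first, and -0.32 ± 0.05 in TAG and -2.30 ± 0.21 in Exoseal for the second (SD, n = 3 each). The log2 differences were 1.95 ± 0.40 and 1.98 ± 0.40 (limma, adjusted p = 0.0282 and 0.0260), with 2.09 and 1.99 within slide 1. Both also passed with slide as a block, where the differences are those within slide 1. The other 3 probes did not pass, with 2.21-fold for A_72_P650235 (limma, adjusted p = 0.177). A_72_P681006 (limma, adjusted p = 0.0704) and A_72_P624506 (limma, adjusted p = 0.906) were each well above background on only 1 of 3 TAG and 2 of 3 Exoseal arrays, so the size of their differences is poorly measured. The 7 probes spanned 3.42 log2 units, and their mean gave 0.57 (limma, adjusted p = 0.426). Probes of opposite sign were common on this array, in 385 of 732 named genes with at least 2 tested probes (52.6%), where the median spread between probes of a gene was 1.34 log2 units and the 90th percentile 3.05. The position of each probe on its transcript was not analysed here.

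SPARC, the matricellular glycoprotein, had the most uniform direction over many probes: 6 of 6 tested probes lay higher in TAG without overlap of the scaled levels, a pattern of 20.2% of all tested probes, and 4 were called. A_72_P303134 had processed signals of 4351, 3681 and 2759 in TAG against 3440, 5587 and 1236 in Exoseal. A_72_P639642 had 257, 368 and 219 in TAG against 164, 129 and 138 in Exoseal. The brighter probe overlapped between groups before scaling, while every TAG value of the dimmer one was above every Exoseal value. The log2 differences were 2.01 ± 0.47 (4.02-fold, limma, adjusted p = 0.0342) for A_72_P303134 and 2.65 ± 0.54 (6.28-fold, limma, adjusted p = 0.0268) for A_72_P639642, with 1.42 and 2.13 within slide 1. With quantile scaling A_72_P303134 had 1.48 and did not pass (limma, adjusted p = 0.0766).

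The other called SPARC probes were A_72_P638165 (2.16 ± 0.46, limma, adjusted p = 0.0293), which also passed with slide as a block, and A_72_P444699 (1.81 ± 0.44, limma, adjusted p = 0.0362), which with quantile scaling had 1.37 and did not pass (limma, adjusted p = 0.0706). A_72_P130355 and A_72_P554191 had 1.83 and 2.01 over all arrays but 0.69 and 0.96 within slide 1, and did not pass. On these 2 probes the level of Exoseal replicate 1 was 2.66 and 2.46, close to the lowest TAG levels of 2.69 and 2.92, and Exoseal replicate 2 was at -0.07 and -0.14. The flagged probe A_72_P615272 had 769 and 665 on TAG replicates 1 and 2, against 387, 494 and 412 in Exoseal. Averaged over its tested probes SPARC passed, with 2.08 (limma, adjusted p = 0.0351).

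TNC, a matricellular protein of injured and remodelling tissue, was called higher in TAG by both of its probes. A_72_P035426 had 638, 829 and 523 in TAG against 529, 1314 and 243 in Exoseal, and A_72_P638389 had 40.0, 57.4 and 22.4 in TAG against 31.8, 13.7 and 9.49 in Exoseal. Exoseal replicate 2 was the brightest array for the first probe, and Exoseal replicate 1 overlapped TAG for the second, before scaling. Mean levels were 4.63 ± 0.45 in TAG and 2.69 ± 0.61 in Exoseal for the first, and 0.50 ± 0.57 in TAG and -2.42 ± 1.20 in Exoseal for the second (SD, n = 3 each). The log2 differences were 1.94 ± 0.48 and 2.92 ± 0.64 (limma, adjusted p = 0.0387 and 0.0304), with 1.68 and 1.61 within slide 1. TNC also passed as the mean of its probes, at 2.43 (limma, adjusted p = 0.0285).

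FBN1, the microfibril gene, rested on 1 bright probe. A_72_P088351 had 189, 225 and 137 in TAG against 150, 287 and 138 in Exoseal, so the signals overlapped before scaling. After scaling the level was 2.78 ± 0.38 in TAG and 1.08 ± 0.13 in Exoseal (SD, n = 3 each), a log2 difference of 1.70 ± 0.42 (3.25-fold, limma, adjusted p = 0.0378), with 1.64 within slide 1 and -0.01 without scaling. A_72_P704932 had 9.71, 15.2 and 4.69 in TAG against 22.7, 5.25 and 5.41 in Exoseal, and its difference of 1.74 was 0.02 within slide 1. A_72_P444491, with at most 10.4 on any array, never reached that flag and was not tested.

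DCN, the collagen-binding proteoglycan, split into a bright and a dimmer pair of probes. A_72_P596994 had 7858, 6160 and 4349 in TAG against 9639, 15052 and 7615 in Exoseal, and A_72_P178111 had 3160, 2078 and 1858 in TAG against 4214, 9974 and 3688 in Exoseal. Their rank barely differed between the groups, with percentiles of 98.6 to 99.5 in TAG and 98.6 to 99.7 in Exoseal. Their scaled differences of 0.91 ± 0.40 and 0.49 ± 0.39 (limma, adjusted p = 0.161 and 0.440) were -0.11 and -0.10 with quantile scaling.

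The dimmer DCN pair was called higher in TAG. A_72_P628487 had 1261, 1161 and 762 in TAG against 784, 2264 and 460 in Exoseal, and A_72_P280399 had 159, 123 and 148 in TAG against 90.3, 313 and 67.0 in Exoseal. Exoseal replicate 2 was the brightest array for both, before scaling, and the other Exoseal arrays were below or near the lowest TAG value. The log2 differences were 1.86 ± 0.44 and 1.91 ± 0.46 (limma, adjusted p = 0.0346 and 0.0362), with 1.79 and 2.04 within slide 1. The mean of the 4 probes, 1.29, did not pass (limma, adjusted p = 0.0709).

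IGFBP6, a binding protein of insulin-like growth factor II, had 1 of 2 probes called. A_72_P088481 had 1815, 1405 and 1026 in TAG against 1342, 2993 and 1111 in Exoseal. Its scaled level varied least of the called probes in Exoseal, at 4.26 ± 0.07, with 5.72 ± 0.07 in TAG (SD, n = 3 each), and the log2 difference was 1.45 ± 0.39 (2.73-fold, limma, adjusted p = 0.0470), with 1.42 within slide 1 and -0.26 without scaling. With quantile scaling it was 1.24 and did not pass (limma, adjusted p = 0.0607). A_72_P442649 had 50.1, 36.4 and 33.7 in TAG against 77.7, 14.5 and 15.3 in Exoseal. Exoseal replicate 1 was its brightest array, and its difference of 2.32 ± 0.79 (limma, adjusted p = 0.0847) was 0.40 within slide 1.

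**Figure D2:**
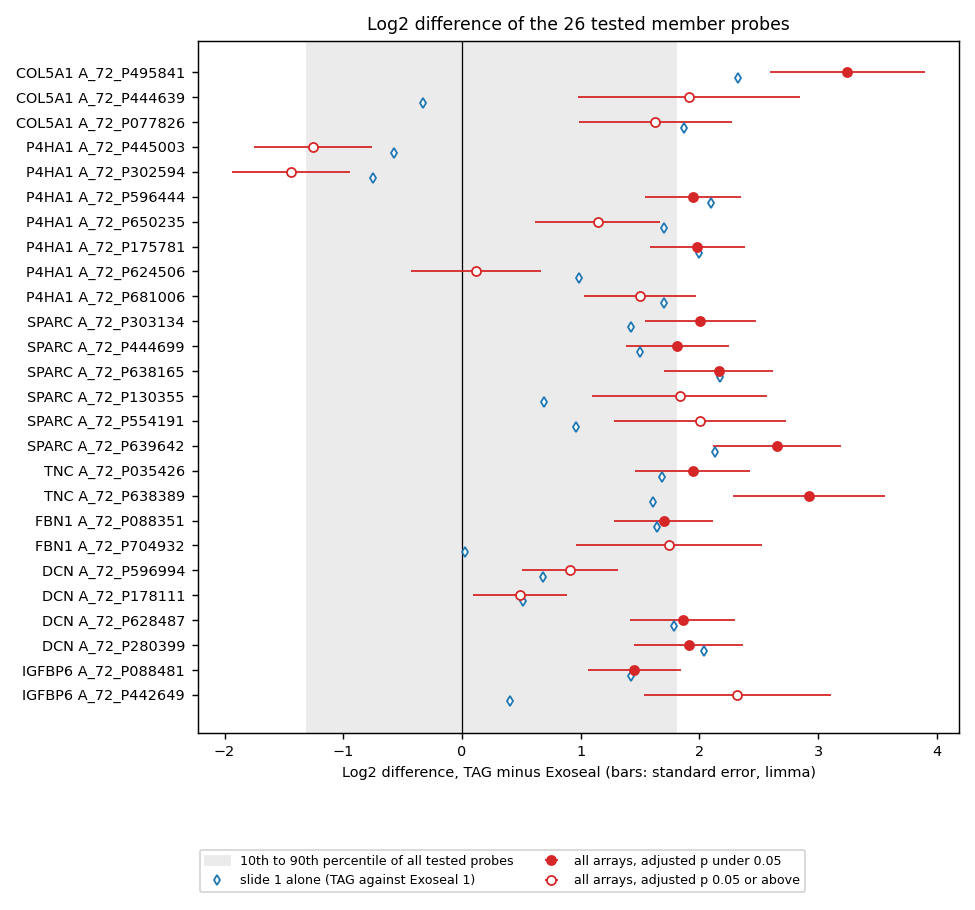
Log2 difference, TAG minus Exoseal, of the 26 tested member probes (circles, with the standard error from limma as bars), with the difference on slide 1 alone as diamonds and the 10th to 90th percentile of all tested probes, -1.30 to 1.80, as a grey band. The 13 filled circles passed the threshold and all lie to the right of 0, and the P4HA1 probes A_72_P445003 and A_72_P302594 lie to the left.

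Rank within the array does not depend on the brightness of the array as a whole, although it moves with the share of probes above background. By percentile, 16 of the 26 probes lay higher in TAG without overlap and 2 lower, against 18.8% and 19.3% of all tested probes. TNC probe A_72_P638389 stood at percentiles 76.4, 83.8 and 77.2 in TAG and at 60.6, 44.3 and 49.2 in Exoseal. P4HA1 probe A_72_P175781 stood at 71.6, 72.5 and 70.9 in TAG and at 39.4, 58.4 and 51.1 in Exoseal. FBN1 probe A_72_P088351 stood at 90.6, 92.8 and 92.7 in TAG and at 84.0, 81.2 and 83.1 in Exoseal. Each of these 3 ranked higher on every TAG array than on any Exoseal array, whereas both bright DCN probes overlapped in rank.

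**Figure D3:**
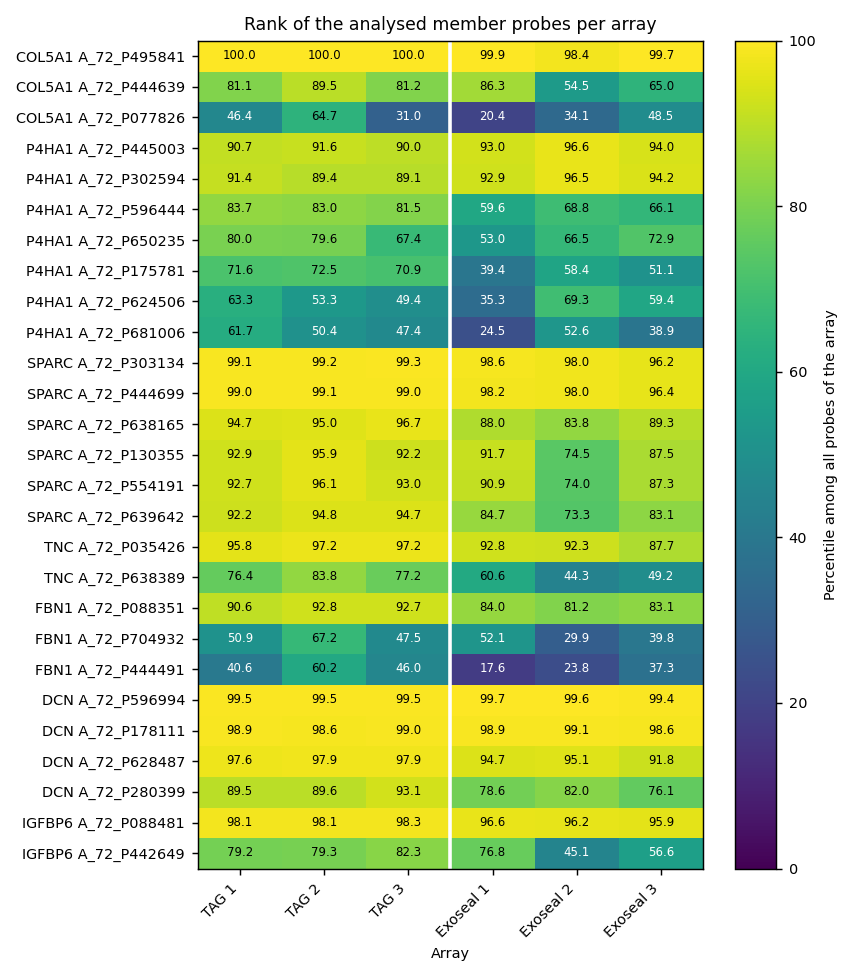
Percentile of each of the 27 analysed member probes among all 43380 probes of the same array, 3 TAG and 3 Exoseal arrays, with colour and number giving the percentile. Bright probes of COL5A1, SPARC, DCN and IGFBP6 reach percentile 95.9 or more on every array, and the middle and dim probes spread more between arrays.

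Before scaling, the processed signals of the 26 probes hardly separated the groups. Only 2 probes were higher on every TAG array than on every Exoseal array (COL5A1 A_72_P495841 and SPARC A_72_P639642, named after their values were seen), and 3 were lower (the bright P4HA1 pair and DCN A_72_P178111), against 1.37% and 57.4% of all tested probes. The median log2 difference without scaling was 0.14 for the 26 probes and -1.63 for all tested probes. Scaling to the array's median gave 1.38 for the 26 and -0.39 for all. With quantile scaling the values were 1.72 and -0.05, and in the authors' deposited table, refitted in the same way, 1.71 and -0.06. A shift of whole arrays moves the 26 probes and all probes alike, so the gap between their medians is fixed at 1.77 for scaling to the 75th percentile, to the median or not at all. Where it could differ, it was 1.77 with quantile scaling and 0.98 with normexp background correction and quantile scaling. It was 1.12 without a filter on dim probes, and 1.28 with Exoseal replicate 1 counted as TAG. The deposited table also gave 1.77, but its columns share their median, 75th percentile and maximum, as after quantile scaling. It is therefore not a check apart from quantile scaling. The number of calls was 13 at the scaling used, 3 with median scaling (COL5A1 A_72_P495841, SPARC A_72_P639642 and TNC A_72_P638389), 9 with quantile scaling and 9 in the deposited table, all higher in TAG, and without scaling 2 P4HA1 probes were called lower and 0 probes higher. A higher level in TAG is therefore stated here relative to the other probes of the array.

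**Figure D4:**
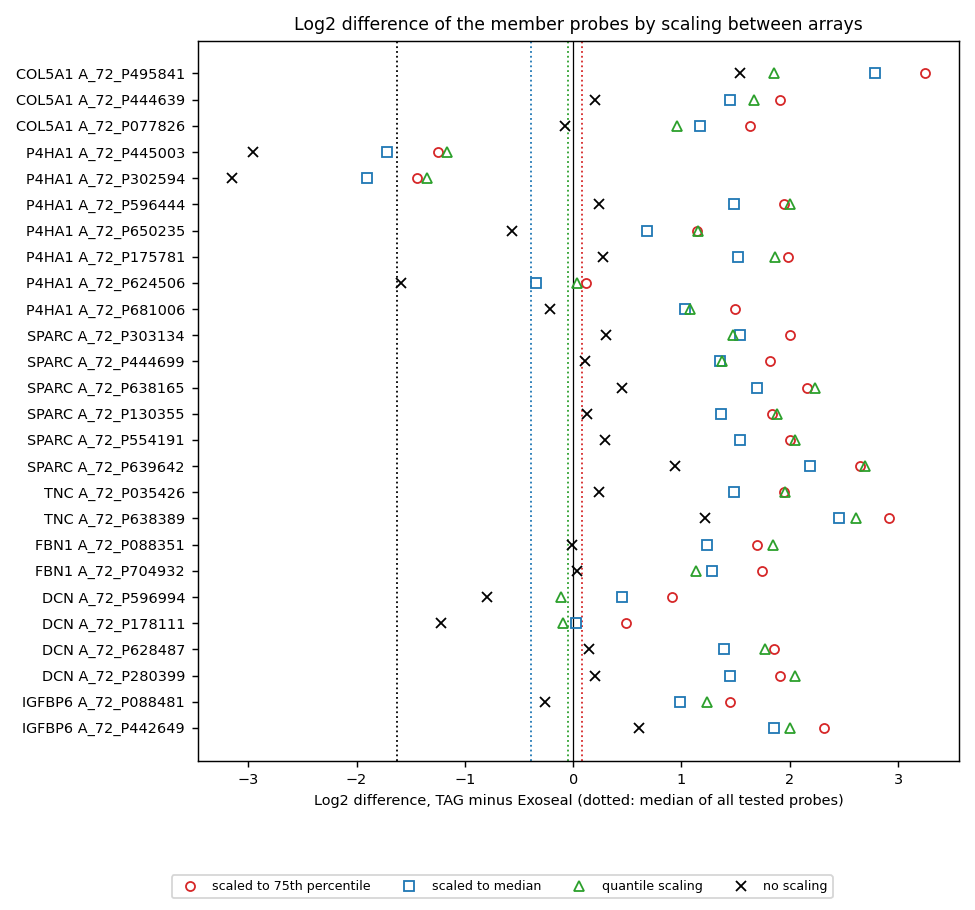
Log2 difference, TAG minus Exoseal, of the 26 tested member probes under scaling to the 75th percentile, to the median, by quantiles and with no scaling, with the median of all tested probes under each as a dotted line. All probes of COL5A1, SPARC, TNC, FBN1 and IGFBP6 lie to the right of the dotted line of their own setting, and the bright P4HA1 pair lies to the left.

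The likeness of profiles was measured as the root mean square difference, over 6 arrays, between log2 levels centred on each probe's own mean. Between the brightest probes of the 7 genes, FBN1 and IGFBP6 were closest at 0.24, followed by SPARC and TNC at 0.25 and DCN and IGFBP6 at 0.32. On these probes COL5A1 lay at least 1.06 from each other gene, and P4HA1 at least 1.24. COL5A1 A_72_P495841 had centred values of 1.30, 1.67 and 1.90 in TAG and -0.70, -3.16 and -1.01 in Exoseal, with Exoseal replicate 2 the lowest array. SPARC had 0.83, 1.09 and 1.09 in TAG and -0.42, -0.86 and -1.73 in Exoseal, and TNC had -0.71, -0.54 and -1.67 in Exoseal, both with Exoseal replicate 3 the lowest. After scaling, TAG replicate 1 was the lowest TAG array for COL5A1, SPARC, TNC, FBN1, DCN and IGFBP6. That order depends on the scaling, since this array had the highest 75th percentile of the TAG arrays, 36.4. Before scaling it was the brightest TAG array on these probes of COL5A1, SPARC, DCN and IGFBP6, and the middle one for TNC and FBN1. P4HA1 A_72_P445003 ran the other way, at -0.64, -0.31 and -0.93 in TAG and -0.05, 1.43 and 0.50 in Exoseal. This does not hold for the gene as a whole, since 5 of its 7 probes had a difference above 0 and 2 below. Its called probes A_72_P175781 and A_72_P596444 lay 0.20 and 0.30 from DCN A_72_P628487.

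Probes of a gene did not always resemble each other most. Of the 26 probes, 11 had their nearest neighbour among probes of the same gene and 15 among another member gene. Neighbours were sought only among these 26, whose pairs were 48 within a gene and 277 between genes. The closest pairs within a gene were SPARC A_72_P130355 and A_72_P554191 (0.13), P4HA1 A_72_P175781 and A_72_P596444 (0.14), SPARC A_72_P303134 and A_72_P444699 (0.19) and P4HA1 A_72_P302594 and A_72_P445003 (0.23). Across genes, SPARC A_72_P444699 and DCN A_72_P628487 were 0.15 apart, and the dim probes COL5A1 A_72_P444639 and FBN1 A_72_P704932 were 0.30 apart. The median distance was 0.80 over 48 pairs within a gene and 0.98 over 277 pairs between genes, as a description of pairs that share arrays and probes.

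**Figure D5:**
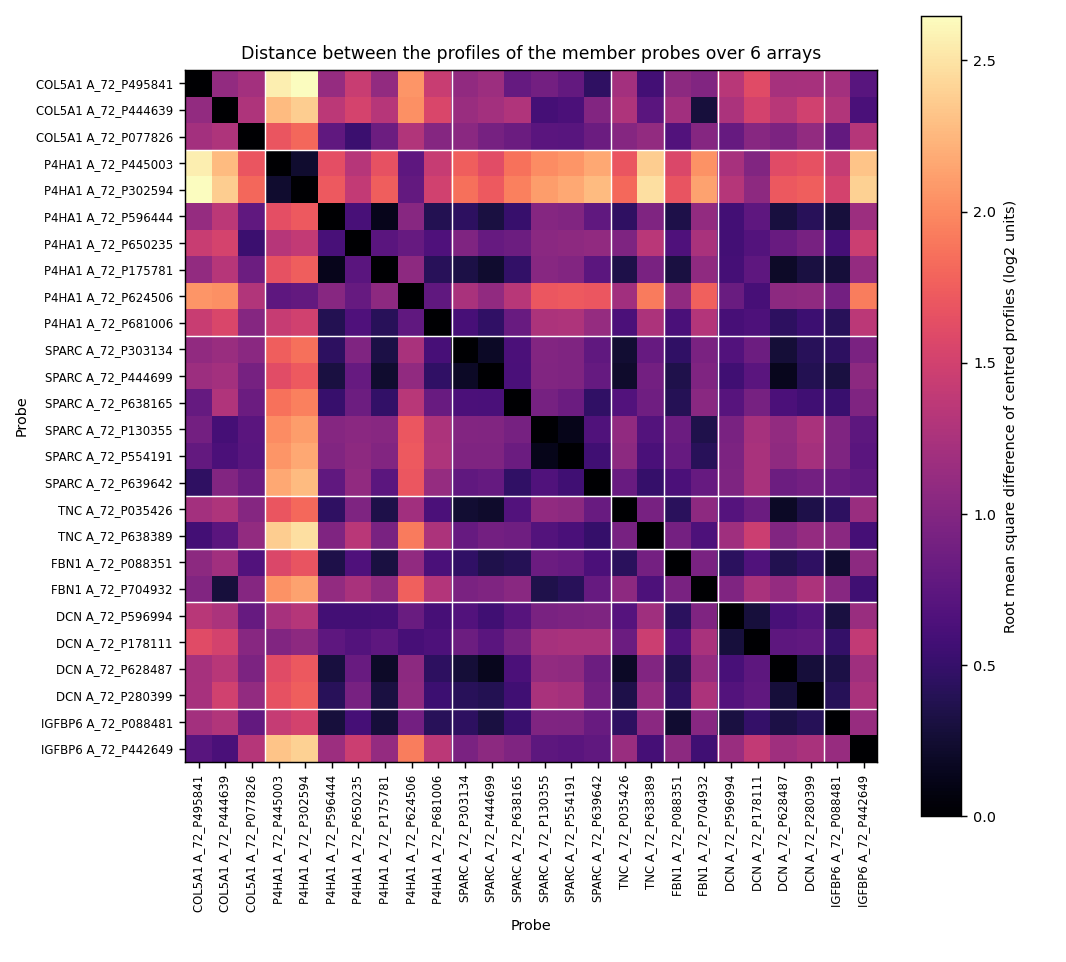
Root mean square difference in log2 units between the centred profiles of the 26 tested member probes over 6 arrays, both axes in the same probe order, white lines between genes, dark cells for like profiles. The bright P4HA1 pair A_72_P445003 and A_72_P302594 is dark within itself (0.23) and light against most other probes.

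Exoseal replicate 1, whose labels conflict, lay nearer to the TAG mean than to the mean of the other 2 Exoseal arrays on 9 of the 26 probes, against 53.0% of all tested probes. The 9 included COL5A1 A_72_P444639, FBN1 A_72_P704932, IGFBP6 A_72_P442649, TNC A_72_P638389 and the SPARC pair A_72_P130355 and A_72_P554191, as well as P4HA1 A_72_P445003, A_72_P302594 and A_72_P624506. On the first 6 of these it was the highest of the Exoseal arrays, and on the 3 P4HA1 probes it was the lowest. It lay nearer to the other Exoseal arrays on the brightest probe of COL5A1, SPARC, TNC, FBN1, DCN and IGFBP6. Label and slide cannot be told apart on this array, which shares its slide with TAG.

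Among 1613 other named genes by their brightest probe, the profiles closest to IGFBP6 were those of DES (desmin, 0.10), OPTN (optineurin, 0.13) and TBK1 (a kinase of innate immunity, 0.14), and those close to FBN1 included ARPC2 (an actin-branching subunit, 0.20) and DES (0.21). DCN was closest to DDX39B (an RNA helicase, 0.13) and CNN1 (smooth muscle calponin, 0.14). SPARC was closest to CAPZB (an actin capping subunit, 0.12), SLC25A3 (the mitochondrial phosphate carrier, 0.21) and ISG15 (0.24), and TNC to ISG15 (0.23), TOR1A (0.24) and YIPF5 (0.25). The nearest to COL5A1 were TPI1 (a glycolytic enzyme, 0.30), SLC52A2 (a riboflavin transporter, 0.34) and LPCAT4 (0.38), and the nearest to P4HA1 were CHCHD1 (0.17), FBXO9 (0.17) and CAT (catalase, 0.17). Across all 1613 genes the median distance ran from 0.75 for DCN to 1.78 for COL5A1.

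Other matrix genes could be named for few probes, and each is given by its brightest probe. COL5A2, the partner chain of COL5A1 in type V collagen, had a level of 3.76 ± 0.12 in TAG and 3.47 ± 0.19 in Exoseal (SD, n = 3 each), a log2 difference of 0.29 ± 0.40 (limma, adjusted p = 0.667) with 1.23 to 1.77 on its other probes, and it turned to -0.17 with median scaling and -1.42 without scaling. It was the 1 other fibrillar collagen tested, and COL5A3 was not tested. Of 5 other matricellular genes, CTGF (connective tissue growth factor, 2.42 ± 0.48, limma, adjusted p = 0.0254) and TNXB (tenascin X, 1.91 ± 0.53, limma, adjusted p = 0.0486) rose in TAG, and SPP1 (osteopontin, -2.08 ± 0.55, limma, adjusted p = 0.0441) fell. Once slide was added as a block, all 3 missed the threshold in limma, at 1.97 for CTGF, 0.95 for TNXB and -1.09 for SPP1 (adjusted p = 0.0544, 0.301 and 0.248), nor did any with median scaling (adjusted p = 0.0519, 0.0917 and 0.0703). The second TNXB probe had -0.80, and both other SPP1 probes were below 0. SPARCL1 (hevin, the closest relative of SPARC) had 0.88, with 0.43 to 2.72 on its other probes. VTN (vitronectin) had 0.20, with 0.44 to 0.90 on its other probes, and neither gene passed on its brightest probe. The 5 had a median of 0.88.

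Of 7 other genes of insulin-like growth factors and their binding proteins, 0 passed in limma, with IGF1 at -0.98 ± 0.45 and IGFBP7 at 0.90 ± 0.47 (limma, adjusted p = 0.174 and 0.232) and a median of 0.13. On that brightest probe IGFBP7 turned to -0.62 with quantile scaling, -0.67 with normexp, -0.64 in the deposited table and -0.81 without scaling. Its other probes had 1.73 to 2.53 at the scaling used. ACAN (aggrecan), the 1 other proteoglycan tested, had 0.13 ± 0.46 (limma, adjusted p = 0.880), and -0.34 with median and -1.58 without scaling. None of the 17 genes of the basement membrane list was named on the array, and of the 21 listed for collagen processing and the 16 for elastic fibres only P4HA1 and FBN1 were.

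Markers of cell types were read beside these genes. Of the fibroblast list 3 of 14 genes were named on the array, and 0 passed in limma on the brightest probe. CD34 had 0.60 (-1.10 without scaling), with 0.89 to 2.11 on its other probes. DPP4 had -2.00 (well above background on 1 of 3 TAG arrays) and THY1 -0.09 (on 0 of 3 TAG arrays). The other genes of that list, PDGFRA, LUM and COL1A1 among them, were not named on the array. In the smooth muscle list ACTA2 (2.22 ± 0.43) and DES (1.52 ± 0.39, but -0.19 without scaling) rose, 2 of 4 tested, and the mean level of the list was 6.13 to 6.51 in TAG and 5.36 to 5.61 in Exoseal. CNN1 had 0.73, with 2.49 on its other probe, and MYLK -1.37. In the macrophage list LYZ (-3.64 ± 0.66, with -3.52 to -0.91 on its other probes) and AIF1 (-1.80 ± 0.44, with -1.39 on its other probe) fell, 2 of 5. CD163 had 0.10, CD14 0.23 (well above background on 1 of 3 TAG arrays) and TYROBP -0.19 (on 0 of 3 TAG arrays). The median of this list was -0.19, with list means from 0.55 to 0.65 in TAG and from 1.28 to 1.97 in Exoseal. CDH5 (-2.47 ± 0.56) fell, 1 of 2 endothelial genes, while PECAM1 had -1.57 on its brightest probe and 2.40 on its other, with list means from 0.66 to 2.11 in TAG and from 2.41 to 4.31 in Exoseal. ACTA1 (2.48 ± 0.40, with -1.94 to 2.37 on its other probes) rose, 1 of 7 skeletal muscle genes. The list median was -0.59, with MYH2 at -1.80, TNNT3 at -1.09, MYH7 at -0.70, TNNC2 at -0.59, CKM at 0.11 and MYH1 at 0.55, and list means from -0.23 to 1.66 in TAG and from 0.37 to 1.84 in Exoseal. MYH2 and TNNT3 were each well above background on only 1 of 3 TAG arrays, so the size of their differences is poorly measured. None of 3 adipocyte genes passed in limma (FABP4 -0.16, LPL -0.79), with list means from 1.64 to 1.84 in TAG and from 1.86 to 2.26 in Exoseal. No Schwann cell gene was tested. In limma the adjusted p of the 6 called marker genes ran from 0.0225 (ACTA1) to 0.0429 (DES). With slide as a block LYZ, AIF1 and ACTA1 passed, and CDH5 (-1.49), ACTA2 (1.89) and DES did not (adjusted p = 0.127, 0.0514 and 0.0971). With median scaling only LYZ and AIF1 of the 6 passed, and with quantile scaling DES did not (0.75, adjusted p = 0.210). The part of these cell types in the differences of the 7 genes was not tested.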

How the data were processed

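RNA of 3 TAG and 3 Exoseal arteries was measured on 6 Agilent 1-colour arrays, grouped by sample title. Spot intensity was read with Agilent Feature Extraction 11.0.1.1, per the file headers and the submitters' processing notes, and its processed signal was background-subtracted and detrended within each array. The authors' deposited table of 43663 probes holds log2 values scaled between arrays, by software that no source used here names. From the values, every column has a median of 3.40, a 75th percentile of 5.59 and a maximum of 15.6, as after quantile scaling.

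From 45220 spots, 1417 controls were removed, and 223 of 43603 probes were dropped for outlier flags. No spot was saturated. Probes were named through RefSeq accessions of the array design, with names from a table of assembly Sscrofa11.1, which gave 1 symbol to 5435 probes. Log2 processed signals were scaled to each array's 75th percentile. Probes well above background on at least 3 of 6 arrays were tested with limma 3.58.1 in R 4.3.3, two-sided, without covariates, with Benjamini-Hochberg adjustment over 22720 probes and a threshold of 0.05. The number of arrays limits the precision. On simulated data with 200 changed probes of 22720 in this comparison, changes of 1 or 2 log2 units were recovered in 0% and changes of 3 in 44.5%, with 2.85 false calls on average. In the data 2443 probes were called. The Benjamini-Hochberg cutoff depends on the number of changed probes, so these simulated shares do not carry over to the data.

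Alternatives were other scalings, normexp (offset 50, on median spot signals, since the files hold no mean signal), the deposited table, other filters, slide and replicate number as blocks, left-out arrays and the label conflict. The deviations of same-numbered TAG and Exoseal arrays had correlations of -0.18, 0.09 and -0.07. The labels name no animal, and so few correlations cannot show whether the numbers pair the samples. The main fit did not pair them.

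The members and all gene lists were chosen with earlier results of these data known. All member probes are named. Of each list up to 3 called genes with the largest difference are named, or the 2 of smallest p where no gene passed, by each gene's brightest probe, and for each member the 3 genes of the most similar profile, of which some are not reported here. SPARCL1, VTN, THY1, CNN1, MYLK and the macrophage, endothelial and skeletal muscle genes that did not pass were named after their values were seen.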

Additional observations from a re-analysis of the deposited data

How the results depend on the processing

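Against 2443 calls over all probes (1604 higher, 839 lower in TAG) and 13 of 26 among the probes of the 7 genes, median scaling gave 1049 (492 higher, 557 lower) and 3, quantile scaling 3152 (1629 higher, 1523 lower), normexp with quantile scaling 1602, and no scaling, chosen after seeing the data, 10943 (239 higher, 10704 lower) and 2. Without a filter on dim probes limma made 0 calls over all probes and 0 among the member probes, then 27 with FBN1 A_72_P444491 (14126 and 20 were 2-fold or more with a p under 0.05 before adjustment). Slide as a block left 3 of the 26. With Exoseal replicate 1 counted as TAG there were 3788 calls over all probes. Per gene, 5 of 7 passed by the brightest probe and 2 of 7 by the mean of probes, where P4HA1 had 0.57. Leaving out 1 array gave 0 to 7715 calls over all probes and 0 to 21 among the 26, the upper values without Exoseal replicate 1. With the replicate block limma made 0 calls over all probes and 0 among the 26 (6381 and 18 by that unadjusted criterion).

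Signs turned as follows, and the cause was not tested. P4HA1 A_72_P624506 had -0.34 with median scaling, -0.10 with normexp, -0.11 in the deposited table, -1.59 without scaling and -0.56 with Exoseal replicate 1 as TAG, and -0.32 to 0.58 with 1 array left out. DCN A_72_P596994 and A_72_P178111 had -0.11 and -0.10 with quantile scaling, -0.024 and -0.15 with normexp, -0.13 and -0.11 in the deposited table, and -0.80 and -1.22 without scaling. COL5A1 A_72_P444639 had -0.33 with slide as a block and on slide 1 alone. Without scaling COL5A1 A_72_P077826 had -0.078, P4HA1 A_72_P650235 -0.57, P4HA1 A_72_P681006 -0.21, FBN1 A_72_P088351 -0.0093 and IGFBP6 A_72_P088481 -0.26. Signal was well above background on all 6 arrays for 22 of the 26 probes, and on fewer arrays for the rest.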
